A study of Mus musculus with 12 samples.

Results

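The interleukin-1 (IL-1) family was followed in dendritic cells (DCs) grown from mouse bone marrow, through 10 genes for its ligands, antagonists and receptors. These were Il1a, Il1b, Il18, Il33, Il1rn, Il18bp, Il1r2, Il1r1, Il1rap and Il1rl1, and every array probe whose accession belongs to them was taken. That gave 19 probes of 10 genes, among 56605 probes on the array and 24232 genes that could be named. The study asked how age, antibiotics and a gut bacterium given to old mice bear on DCs. DC Young came from female mice of 2 months given no agent, and DC Dysbiotic from female mice of 2 months whose drinking water held an antibiotic cocktail of ampicillin, neomycin, metronidazole and vancomycin. DC Old came from female mice of 24 months given no agent, and DC Old-LP from female mice of 24 months given LP, which is Lactobacillus plantarum, by gavage. All the cultures were grown with GM-CSF and IL-4 and then matured with lipopolysaccharide (LPS), a component of bacterial walls, at 1 µg/ml for 24 h. There were 3 arrays per group, with the replicates A, B and C. The study describes its array data as independent sets, each made from pooled mice, while the labels do not say what the letters stand for, so p-values measure the spread between these samples. No array of cells without LPS was analysed here, so the values describe levels after LPS and not the response to it.

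IL-1α and IL-1β bind the receptor encoded by Il1r1, which needs the accessory chain encoded by Il1rap to signal. Il1rn encodes an antagonist that occupies that receptor without signalling, and Il1r2 encodes a decoy receptor that takes up IL-1 but has no signalling domain. IL-33 signals through ST2, encoded by Il1rl1, with the same accessory chain, and IL-18 is held in check by the binding protein encoded by Il18bp. Myeloid cells exposed to LPS are a well known source of IL-1β, whose precursor has to be cleaved after translation, a step that transcript levels do not show.

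Values are normalized log2 signals, that is, log2 of the background-subtracted spot intensity after quantile normalization, so that a difference of 1 is a doubling. Each gene is described at its main probe, the probe with the highest mean, and other probes are named where they differ. Calls come from limma, fitted to all 12 arrays, and needed p-values no higher than 0.05 after Benjamini-Hochberg adjustment over all probes, with an absolute log2 difference of 0.5 or more. Replicates A and B of the 4 groups shared 1 of 3 slides, and the C replicates were split by age over the remaining slides. The C arrays were dimmer, with 37.3 to 46.0% of spots well above background against 61.2 to 66.4% for A and B, and the first principal component, which held 54.9% of the variance, set them apart. Results are therefore also given for the A and B arrays and the C arrays separately. On the C arrays age and slide cannot be told apart. The members were well above background on all 12 arrays at 8 of 10 main probes. The exceptions were Il1a, on none of the 4 C arrays, and Il33, on 1 of them. No member probe was saturated. Markers of DCs stood at a mean of 12.1 to 12.8 on every array, with 0 of 11 called in the comparisons described below. Markers of macrophages stood at a mean of 13.1 to 13.5, with 0 of 8 called. The part of each cell type in these bulk signals was not tested.

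The sequences before the transcription starts of Il1r2, which carried the calls described next, of Il1rl1, which has 2 starts, and of the ligand gene Il1b are shown here to give the context of these genes. They are RefSeq promoter sequences of build GRCm38.p6, each covering the 250 bases before a start, read along the gene's strand. Il1r2 lies at chr1:40085843-40086092 on the plus strand, Il1rl1 at chr1:40429320-40429569 and chr1:40439379-40439628 on the plus strand, and Il1b at chr2:129371140-129371389 on the minus strand. Capitals mark every match to 6 motifs searched on both strands, GGG and TTTCC with any 2 bases between them for NF-κB, TGANTCA for AP-1, GAGGAA for PU.1, TTNNGNAA for C/EBP, TGACGTCA for cyclic AMP response elements and TCACGTGA, an E-box of the kind bound by MiT factors.
Il1r2: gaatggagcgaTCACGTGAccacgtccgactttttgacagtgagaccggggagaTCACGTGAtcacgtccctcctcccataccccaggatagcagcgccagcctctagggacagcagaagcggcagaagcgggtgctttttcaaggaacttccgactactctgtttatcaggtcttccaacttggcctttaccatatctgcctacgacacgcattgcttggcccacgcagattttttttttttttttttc
Il1rl1, first start: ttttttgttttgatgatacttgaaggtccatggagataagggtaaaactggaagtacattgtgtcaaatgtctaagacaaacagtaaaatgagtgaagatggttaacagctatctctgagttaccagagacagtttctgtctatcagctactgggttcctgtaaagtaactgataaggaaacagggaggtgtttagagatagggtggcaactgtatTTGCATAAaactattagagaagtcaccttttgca
Il1rl1, second start: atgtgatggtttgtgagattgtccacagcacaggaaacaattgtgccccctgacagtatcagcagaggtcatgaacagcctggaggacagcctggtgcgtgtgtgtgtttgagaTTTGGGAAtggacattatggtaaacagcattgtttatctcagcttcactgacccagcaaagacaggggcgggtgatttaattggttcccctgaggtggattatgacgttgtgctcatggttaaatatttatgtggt
Il1b: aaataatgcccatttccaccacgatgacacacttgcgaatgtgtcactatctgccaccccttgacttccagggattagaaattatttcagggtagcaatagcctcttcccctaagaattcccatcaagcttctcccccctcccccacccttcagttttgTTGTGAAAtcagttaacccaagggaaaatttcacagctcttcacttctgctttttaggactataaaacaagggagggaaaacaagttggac
The Il1r2 sequence held the E-box 2 times, from 239 to 232 and from 196 to 189 bases before the start, and none of the other motifs. This motif was added after the sequence had been read. Among 32851 mouse promoters of the same length, 0.785% held it at least once and 0.0335% at least 2 times. The Il1rl1 and Il1b sequences held only the C/EBP motif, which 36.8% of all promoters held. Of the 15 member promoters, 1 held the NF-κB motif (1.41% of all promoters), 2 the AP-1 motif (6.75%), 1 the PU.1 motif (23.3%), 11 the C/EBP motif (36.8%), and the cyclic AMP motif (1.55%) was found in 0. The 15 promoters belong to 10 genes and are not independent. The Il1rn windows chr2:24345041-24345290 and chr2:24345121-24345370 overlap and share a C/EBP match, which is counted in both. A match describes letters in this window and is not a binding site. On chromosome 1, Il1r2, Il1r1, Il1rl2, Il1rl1, Il18r1 and Il18rap follow each other as neighbouring protein-coding genes, and on chromosome 2 Il1a lies next to Il1b.

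Across the whole family, few probes were called over all 12 arrays, and the calls fell on the decoy receptor. In DC Old against DC Young, 1 of 19 member probes was lower and 0 higher, against 0.62% of all probes called. Of the old groups, DC Old-LP had 1 of 19 higher than DC Old and 0 lower, against 0.348% of all probes. In both comparisons it was the same probe of Il1r2. In DC Dysbiotic against DC Young, 0 of 19 were called (all probes 0.344%). The same count of 0 was found when DC Old-LP was set against DC Young (0%) and when DC Old and DC Old-LP were each set against DC Dysbiotic (0.00177% and 0.163%). At an unadjusted p under 0.05, the numbers of member probes in these 6 comparisons, in the order given, were 3, 2, 1, 0, 2 and 1 of 19, against 6.05%, 5.87%, 3.90%, 1.13%, 1.54% and 3.35% of all probes. At the main probes of the 10 genes, 0 were called in any comparison and 0 had an unadjusted p under 0.05. With the replicate letter as a block, 1 member probe was called in DC Dysbiotic against DC Young (all probes 0.984%), 2 in DC Old against DC Young (2.18%) and 1 between the old groups (1.65%), all of them of Il1r2.

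The A and B arrays alone, 2 per group on 1 slide, gave many more calls, among the members as among all probes. There, 4 member probes were higher and 4 lower in DC Dysbiotic than in DC Young (all probes called 6.14%), and 5 were higher and 4 lower in DC Old (9.17%). DC Old-LP against DC Old had 4 member probes higher and 1 lower (8.24%), and DC Old-LP against DC Dysbiotic likewise 4 higher and 1 lower (4.81%). DC Old-LP against DC Young had 0 (0.0389%), as had DC Old against DC Dysbiotic (0.0406%). The genes called higher were Il1b and Il33 in DC Dysbiotic, joined by Il18 in DC Old, and the genes called lower in both were Il1r2 and Il1rl1. Against DC Old, Il1r2 and Il1rl1 were higher and Il33 was lower in DC Old-LP. These calls rest on the differences between A and B, which were small, with a median absolute log2 difference of 0.0917 to 0.135 by group over 18620 probes well above background on every array.

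The decoy receptor Il1r2 was below its DC Young level in DC Old and higher again in DC Old-LP. At its second probe, annotated to NM_010555, the signals were 8.78, 8.95 and 7.95 for replicates A, B and C of DC Young, and 6.49, 6.42 and 6.37 for those of DC Old. DC Old-LP had 8.63, 8.69 and 7.87. DC Dysbiotic had 7.40, 7.18 and 7.12. Every DC Old array lay below every array of the other 3 groups, every DC Dysbiotic array lay below those of DC Young and DC Old-LP, and the latter groups overlapped. On replicate C of DC Old the spot was not well above background, so its value there may be lower than shown. DC Old was lower than DC Young by a log2 difference of -2.13 (SE 0.314, n = 3 per group, adjusted p = 0.0153 by limma), a 4.38-fold lower signal. DC Old-LP was higher than DC Old by 1.97 (SE 0.314, adjusted p = 0.0348), or 3.92-fold. The difference between DC Dysbiotic and DC Young was -1.33 (95% interval -2.02 to -0.63), with an adjusted p of 0.219 that became 0.0351 with the replicate block. DC Old-LP and DC Young differed by -0.16, with a 95% interval from -0.86 to 0.54. Ordered by level, DC Young and DC Old-LP were not separated beyond their spread, while DC Old-LP lay above DC Dysbiotic by 1.16 (adjusted p = 0.460) and DC Old stood at -0.81 against DC Dysbiotic (adjusted p = 1.00), without overlap and without a call.

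The direction of both called differences was the same on both sets of arrays. Over A and B the second probe gave -2.41 for DC Old against DC Young (adjusted p = 0.000307) and 2.21 for the old groups (adjusted p = 0.000478). The C arrays, 1 per group and without a test, gave -1.58 and 1.50, the first of them between different slides. The call for DC Old against DC Young was lost without DC Young replicate A (adjusted p = 0.101), DC Young B (0.0897), DC Old A (0.0678) or DC Old B (0.0748), with normexp background correction (0.0643), with the deposited log2 table (0.0524) and with these 2 groups fitted alone (0.202). That for DC Old-LP against DC Old held only without DC Young C (adjusted p = 0.0176) or DC Old-LP C (0.0223) and was lost without each of the other 10 arrays in turn, with adjusted p of 0.0507 to 0.182. It was also lost with 75th-percentile scaling (adjusted p = 0.128), normexp (0.108), the deposited table (0.100) and a fit of the old groups alone (0.342), while its sign stayed the same in every setting run.

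The main probe of Il1r2, annotated to NM_001360800, showed the same order on the first slide with a wide gap to the C arrays. Its signals were 10.43, 10.42 and 8.17 in DC Young, 8.94, 8.79 and 6.82 in DC Dysbiotic, 8.03, 8.25 and 7.35 in DC Old, and 10.20, 10.19 and 7.95 in DC Old-LP. In each group the C array was the lowest, and among the C arrays it was DC Dysbiotic, not DC Old, that had the lowest value. Over all arrays DC Old stood at -1.79 (SE 0.830, adjusted p = 0.860) and DC Dysbiotic at -1.49 (adjusted p = 1.00) relative to DC Young, and DC Old-LP at 1.57 relative to DC Old (adjusted p = 0.981). With the replicate block the adjusted p was 0.0297, 0.0985 and 0.0605, and over the A and B arrays the differences were -2.28, -1.56 and 2.05, with adjusted p of 0.000318, 0.00162 and 0.000529. Which transcript forms the probes tell apart was not established.

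**Figure D1:**
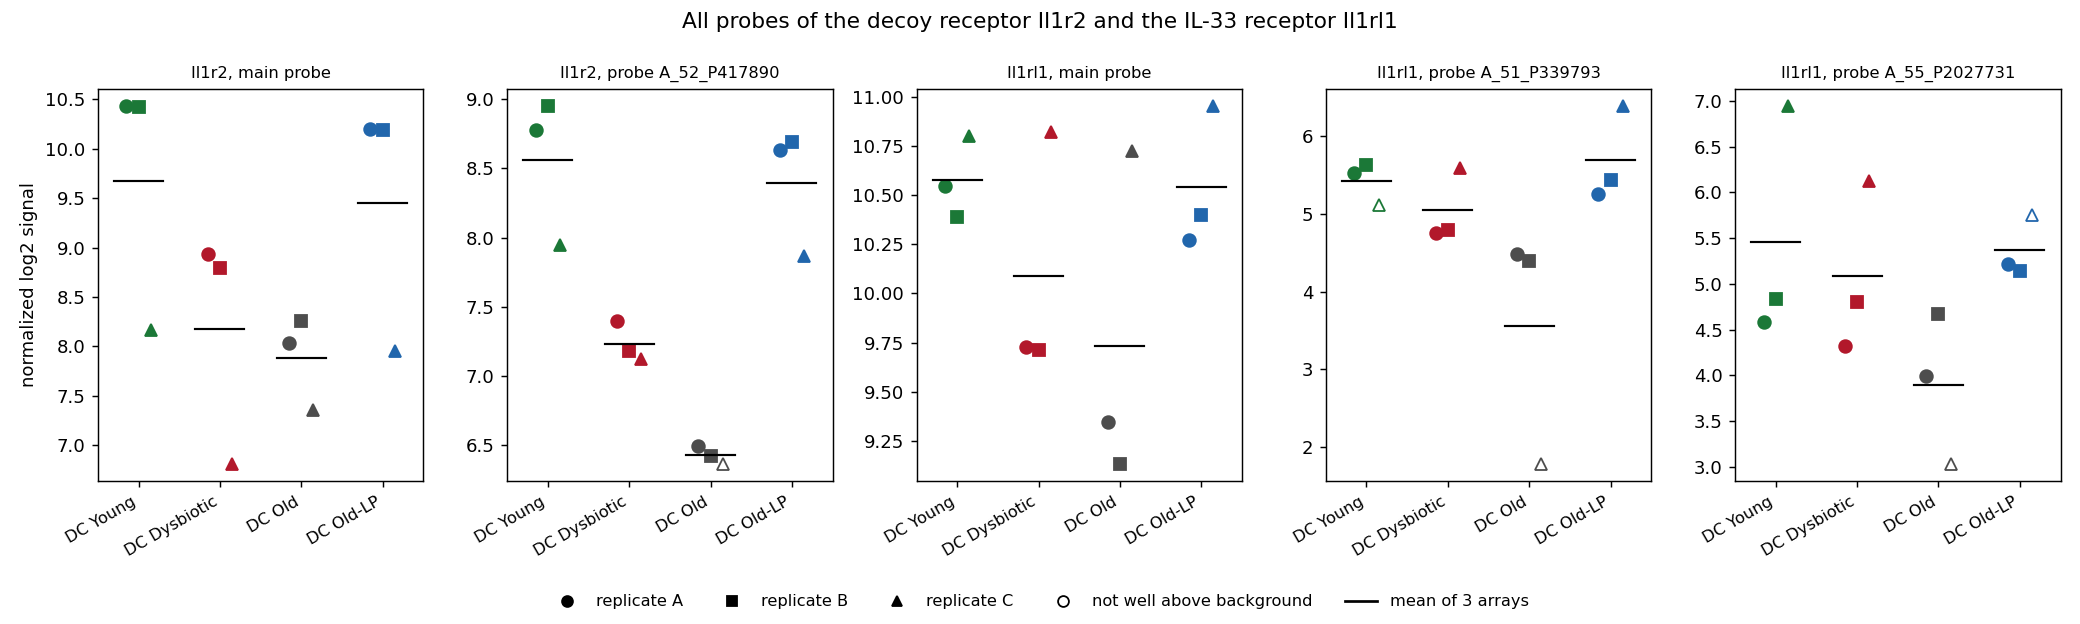
Normalized log2 signal (y axis) of the 2 probes of Il1r2 and the 3 probes of Il1rl1 on each of the 12 arrays, by group (x axis). Symbols give the replicate letter, open symbols spots not well above background and bars the mean of 3 arrays. In the second panel the DC Old arrays, at 6.37 to 6.49, lie below all others, and in the third panel the groups part on the A and B arrays but not on the C arrays, which lie between 10.72 and 10.95.

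Most markers of neutrophils and their precursors, cells in which Il1r2 is well known to be expressed, were, like Il1r2, lowest in DC Old on the A and B arrays. The mean over the 10 markers was 8.98 to 9.50 in DC Young, 8.98 to 9.10 in DC Dysbiotic, 8.49 to 10.3 in DC Old, and 9.56 to 9.76 with LP. Of the 10, 8 were well above background on every array. On the A and B arrays, Mpo (myeloperoxidase) had the same order of groups as Il1r2, with 11.2 and 11.3 in DC Young, 9.81 and 9.78 in DC Dysbiotic, 8.68 and 8.87 in DC Old, and 10.9 on both DC Old-LP arrays. On replicate C of DC Old it was 11.2, where Il1r2 was low. S100a8, S100a9, Ngp, Ltf, Elane, Retnlg and Cxcr2 also had DC Old lowest on A and B, and DC Old-LP above DC Dysbiotic. DC Dysbiotic lay below DC Young there at each of them but Retnlg, which overlapped. On the C arrays S100a9, Ngp, Ltf, Elane and Retnlg were highest in DC Old, and Cxcr2 was lowest in it. Ly6g was not lowest in DC Old on the A and B arrays. It was 9.3 and 9.4 in DC Young, 9.5 and 9.6 in DC Dysbiotic, 9.6 and 9.5 in DC Old, and 9.4 and 9.3 in DC Old-LP. The 1 marker called was Camp, which was higher in DC Dysbiotic (2.47, adjusted p = 0.0498) and DC Old (2.71, adjusted p = 0.0208) than in DC Young. The part of these cells in the Il1r2 result was not tested, and in bulk RNA fewer cells of a type and less RNA per cell cannot be told apart.

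At its main probe, Il1rl1, the IL-33 receptor ST2, was lower in DC Old and DC Dysbiotic on the first slide and not on the C arrays. That probe, annotated to NM_001025602, gave 10.55, 10.39 and 10.80 in DC Young and 9.72, 9.71 and 10.82 in DC Dysbiotic. DC Old had 9.35, 9.13 and 10.72, and DC Old-LP 10.27, 10.40 and 10.95. The A and B arrays of DC Old were the lowest of all, followed by those of DC Dysbiotic, and the 4 C arrays lay close together and high. Over all arrays the differences were -0.84 for the old against the young group (95% interval -1.85 to 0.16, adjusted p = 0.994), -0.49 for DC Dysbiotic against DC Young (adjusted p = 1.00) and 0.80 between the old groups (adjusted p = 1.00). Over A and B they were -1.23 (adjusted p = 0.00270), -0.75 (0.0215) and 1.09 (0.00456), and on the C arrays -0.08, 0.02 and 0.23. Whether the arrays of the first slide and the C arrays differ in these effects was not tested.

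Both dimmer probes of Il1rl1 also had their lowest mean in DC Old. The probe annotated to NM_010743 gave 5.53, 5.63 and 5.12 in DC Young, 4.76, 4.79 and 5.59 in DC Dysbiotic, 4.49, 4.40 and 1.79 in DC Old, while DC Old-LP had 5.26, 5.44 and 6.39. The C array was not well above background in DC Young and DC Old, and no DC Old array overlapped with any other group. DC Old was below DC Young by a difference of -1.87 (SE 0.653, adjusted p = 0.514) and DC Old-LP above DC Old by 2.14 (adjusted p = 0.419), neither of them called. Over A and B these were -1.14 (adjusted p = 0.00221) and 0.91 (adjusted p = 0.00558). The other dim probe was not called over A and B. It had -0.38 for DC Old (adjusted p = 0.504) and -0.15 for DC Dysbiotic (0.851), each against DC Young. DC Old-LP against DC Old was 0.85 at that probe (adjusted p = 0.135). Markers of mast cells and basophils, which are known to carry much ST2, had a mean of 9.26 to 9.37 in DC Young, 9.18 to 9.38 in DC Dysbiotic, 8.72 to 9.32 in DC Old, and 9.34 to 9.44 with LP, with 0 of 8 called and 7 of 8 well above background on every array. The mean was lowest on A and B of DC Old, where Mcpt8 was 9.53 and 9.51 against 11.3 and 11.4 in DC Young. Cpa3, Fcer1a, Ms4a2 and Cma1 were also lower there than on A and B of DC Young, while Tpsb2 and Gata2 overlapped. Mcpt4 was higher, at 4.89 and 4.53 against 3.41 and 4.05, but was well above background on only 7 arrays. Markers of T cells and innate lymphoid cells, some of which also carry ST2, had a mean of 11.5 to 11.6 in DC Young, 11.3 to 11.8 in DC Dysbiotic, 9.83 to 10.8 in DC Old, and 11.4 to 11.6 with LP. Of these 6 markers, 0 were called, and 5 were well above background on all 12 arrays. The part of either cell type in the Il1rl1 values was not tested.

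Among the agonist ligands, Il1b had its highest mean in DC Old and its lowest in DC Young, without a call over all arrays. The signals of IL-1β were 10.52, 10.43 and 8.97 in DC Young and 10.98, 11.06 and 10.62 in DC Old. DC Dysbiotic had 11.06, 10.97 and 10.04, and DC Old-LP 10.61, 10.56 and 10.44. Every DC Old array lay above every DC Young array and every DC Old-LP array, while DC Dysbiotic overlapped with DC Young through its C array. DC Old exceeded DC Young by 0.91 (SE 0.424, 95% interval -0.03 to 1.86, adjusted p = 0.868) and DC Dysbiotic exceeded DC Young by 0.72 (adjusted p = 1.00). Without DC Young replicate C these were 0.41 and 0.21. DC Old-LP stood at -0.35 against DC Old (adjusted p = 1.00). Over the A and B arrays the first 2 differences were 0.54 each (adjusted p = 0.0200 and 0.0280), and DC Old-LP against DC Old was -0.43, short of the threshold of 0.5. On the C arrays they were 1.65, 1.08 and -0.18. The second probe of Il1b, not well above background on 3 of the 4 C arrays, gave 0.64 and 0.74 over A and B for DC Old and DC Dysbiotic, each relative to DC Young.

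Il1a, for IL-1α, could be read on the A and B arrays only, since none of the C arrays was well above background. It was 6.70 and 6.85 in DC Young, 7.34 and 7.37 in DC Dysbiotic, 7.51 and 7.01 in DC Old, and 7.04 and 7.20 in DC Old-LP. All 6 arrays of the other groups lay above both DC Young arrays, by a difference of 0.58 for DC Dysbiotic (adjusted p = 0.145), 0.49 for DC Old (0.188), and 0.35 with LP (0.549), none of them called.

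Il18, for the inducer of interferon-γ IL-18, differed by less than Il1b but without overlap. The signals were 8.19, 8.12 and 8.45 in DC Young, 8.68, 8.53 and 8.84 in DC Dysbiotic, 8.68, 8.63 and 8.58 in DC Old, and 8.21, 8.19 and 8.57 in DC Old-LP. All DC Dysbiotic and all DC Old arrays lay above all DC Young arrays, and all DC Old-LP arrays lay below all DC Old arrays, the last by a margin on the C arrays of less than 0.01. The differences were 0.42 for DC Dysbiotic against DC Young (95% interval -0.04 to 0.89), 0.38 for DC Old against DC Young (-0.09 to 0.84) and -0.31 for DC Old-LP against DC Old (-0.77 to 0.15), none of them called. Over A and B, DC Old against DC Young was called at 0.50 (adjusted p = 0.0292), and DC Dysbiotic (0.44) and DC Old-LP against DC Old (-0.46) were under the size threshold.

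Groups without overlap were not more frequent among the members than is usual on these arrays in the comparison with DC Dysbiotic. There, 2 of 19 member probes had no overlap (10.5%, against 9.87% of all probes). In DC Old against DC Young it was 4 of 19 (21.1%, against 9.66%), and between the old groups 5 of 19 (26.3%, against 9.38%). The probes of a gene are not independent of each other, and the 4 and 5 probes belong to 4 and to 4 genes.

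Il33, an alarmin stored in the nucleus, went with the dysbiotic and old groups on the first slide and had no settled direction beyond it. At its main probe the A and B arrays gave 6.64 and 6.67 in DC Young, 7.38 and 7.22 in DC Dysbiotic, 7.41 and 7.30 in DC Old, and 6.63 and 6.54 in DC Old-LP. There the first and last groups were alike in level and lay below the other two. The C arrays gave 3.16, 5.83, 2.40 and 5.27 in the same order of groups, and only that of DC Dysbiotic was well above background. Over A and B the differences from DC Young were 0.65 for DC Dysbiotic (adjusted p = 0.0215) and 0.70 for DC Old (0.0117), and DC Old-LP differed from DC Old by -0.77 (0.00923), a direction that was reversed over all arrays, at 0.44 (SE 1.35, adjusted p = 1.00). The second probe was well above background on only 4 arrays, A and B of DC Dysbiotic (3.86 and 3.80) and of DC Old (3.84 and 4.24).

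Stromal cells are a well known source of IL-33 and carry the IL-1 receptor, and their markers were higher in the same groups. The mean over 9 stromal and endothelial markers was 3.67 to 4.22 in DC Young, 6.01 to 6.04 in DC Dysbiotic, 5.85 to 6.69 in DC Old, and 4.30 to 5.42 with LP. Against DC Young, 3 of 9 were called higher in DC Dysbiotic and 4 of 9 in DC Old. Dcn (decorin) rose by 4.03 (adjusted p = 0.00211) and 4.29 (adjusted p = 0.00114), and it was the 1 marker called lower in DC Old-LP than in DC Old (-2.72, adjusted p = 0.0212). Of the 9, 2 were well above background on every array and 1, Pdgfra, on none. On the C arrays Dcn differed by 3.84 and 4.14, and Il33 by 2.67 and -0.77. The part of stromal cells in the Il33 and Il1r1 values was not tested.

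At their main probes the antagonists differed little between groups on the first slide. Il1rn, for the IL-1 receptor antagonist, gave 12.05, 11.998 and 12.56 in DC Young, 12.07, 12.10 and 12.69 in DC Dysbiotic, 12.09, 11.90 and 12.61 in DC Old, and 12.24, 12.25 and 11.47 in DC Old-LP. Replicate C of DC Old-LP was the lowest array and the other 3 C arrays were the highest. The differences were 0.09 for DC Dysbiotic against DC Young (95% interval -0.63 to 0.80), -0.01 for DC Old against DC Young (-0.72 to 0.71) and -0.21 for DC Old-LP against DC Old (-0.92 to 0.50), with adjusted p of 1.00 each. The second probe of Il1rn had the opposite sign between the old groups, at 0.23 over all arrays and 0.51 over A and B (adjusted p = 0.164), and -0.33 on the C arrays. Il18bp, for the IL-18 binding protein, gave 12.65, 12.69 and 13.96 in DC Young, 12.82, 12.89 and 14.10 in DC Dysbiotic, 12.85, 12.81 and 14.47 in DC Old, and 12.80, 12.66 and 12.84 in DC Old-LP. Its A and B values spanned 12.65 to 12.89 over all groups, and the C array was far above them in every group but DC Old-LP. DC Old-LP against DC Old was -0.61 over all arrays (95% interval -1.81 to 0.59), -0.10 over A and B and -1.63 on the C arrays. On these arrays the ratio of antagonist to ligand cannot be given, because signals of different probes are not on a common scale.

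The signalling chains also showed no call. Il1r1, the IL-1 receptor, gave 7.55, 7.70 and 7.66 in DC Young, 8.05, 8.31 and 7.58 in DC Dysbiotic, 8.30, 7.59 and 7.68 in DC Old, and 7.87, 8.08 and 7.76 in DC Old-LP. The DC Old-LP arrays all lay above the DC Young arrays, by 0.27 (95% interval -0.33 to 0.86, adjusted p = 1.00), and the other pairs of groups overlapped. Replicates A and B of DC Old differed from each other by more than any group means did. Il1rap, the accessory chain, had group means of 7.93 ± 0.267 in DC Young, 8.26 ± 0.198 in DC Dysbiotic, 8.10 ± 0.264 in DC Old, and 8.03 ± 0.207 with LP (SD, n = 3 each), and its differences between groups ran from -0.24 to 0.33, with adjusted p of 1.00. Its probe annotated to NM_001159318 was well above background on 0 of 12 arrays.

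**Figure D2:**
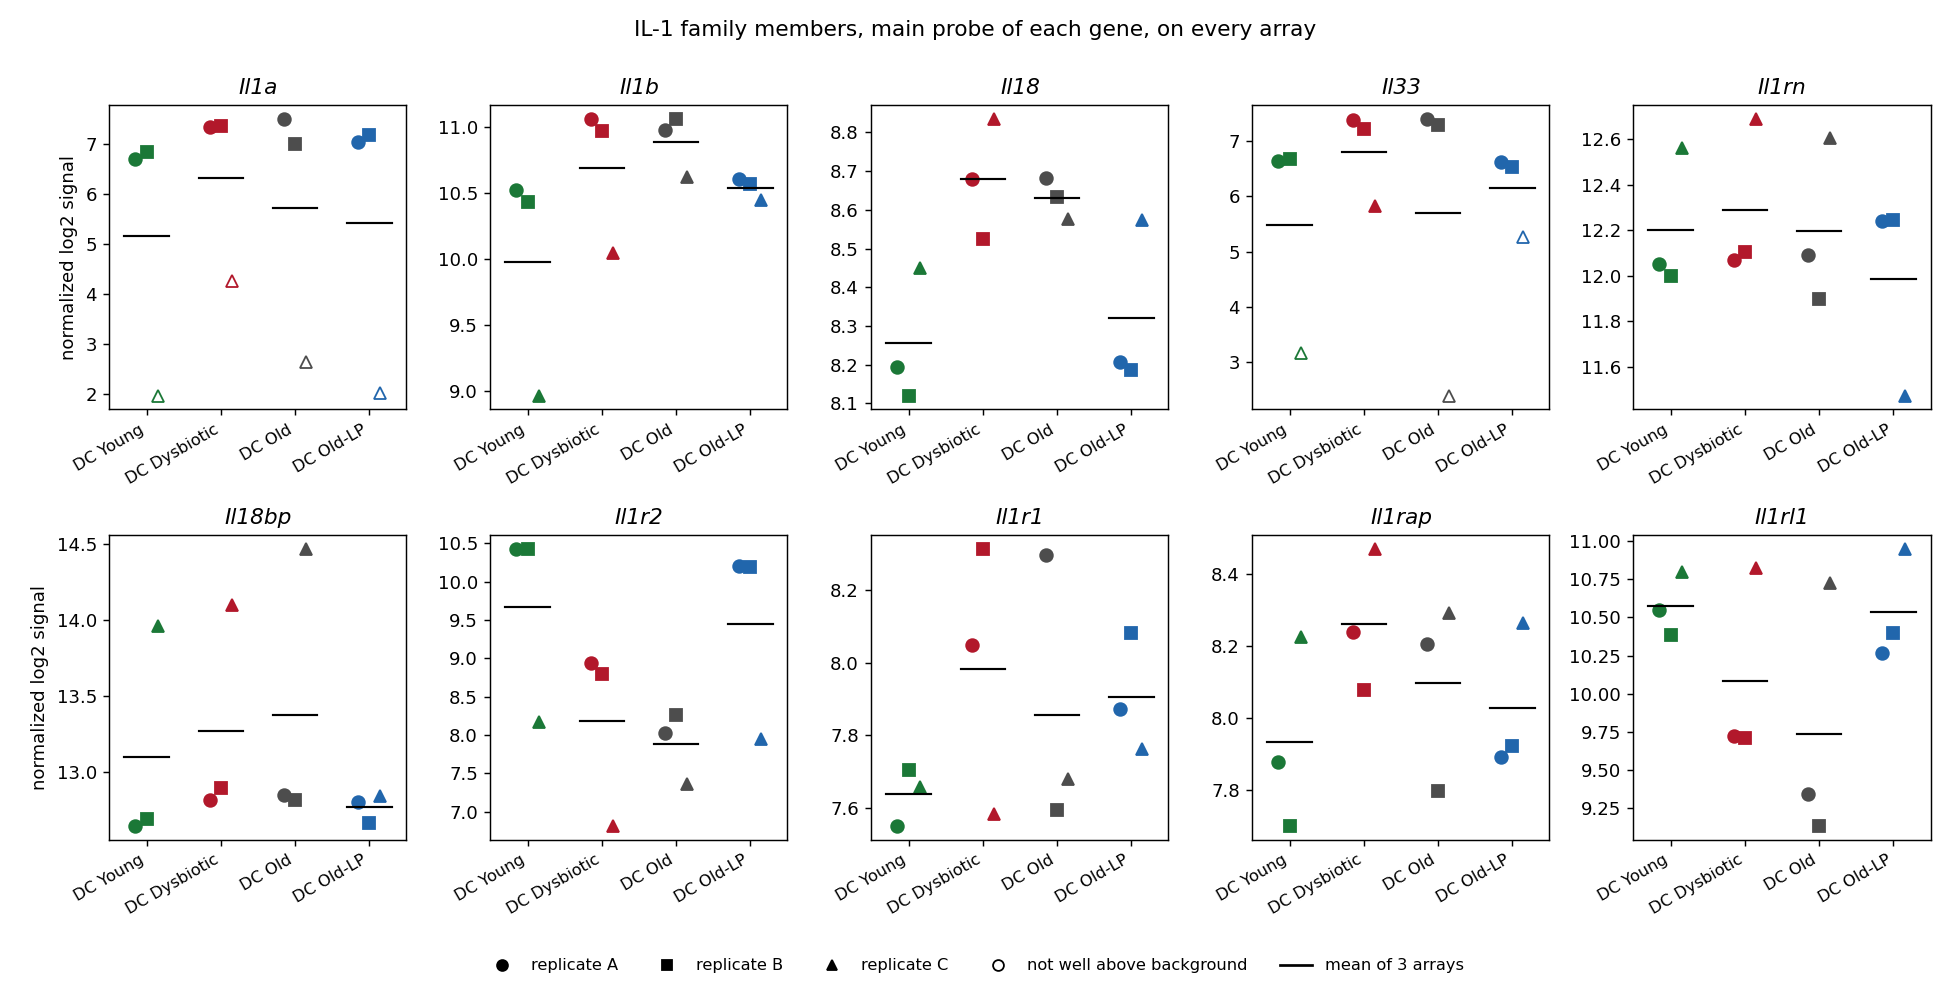
Normalized log2 signal (y axis, with its own range in each panel) of the main probe of the 10 genes on each of the 12 arrays, by group (x axis). Symbols give the replicate letter, open symbols spots not well above background and bars the mean of 3 arrays; Il1r2 and Il1rl1 are lower in DC Dysbiotic and DC Old than in DC Young on the A and B arrays, while Il1b, Il18 and Il33 are higher there.

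The C arrays agreed in sign with the A and B arrays for part of the family only. The C arrays of DC Young and DC Dysbiotic lay on a different slide from those of DC Old and DC Old-LP. For DC Old against DC Young, their differences therefore cannot be told apart from the slide. Il1r2, Il1b, Il18, Il18bp and Il1rap kept their sign across both sets of arrays in all 3 comparisons plotted, although the last difference of Il18 was -0.00 on the C arrays. So did Il1a, but none of its C arrays was well above background. For Il33, DC Old against DC Young was 0.70 on A and B and -0.77 on C, and DC Old-LP against DC Old was -0.77 and 2.88. Il1rn had 0.25 and -1.13 in the last comparison, and Il1rl1 had -0.75 and 0.02 in the first.

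**Figure D3:**
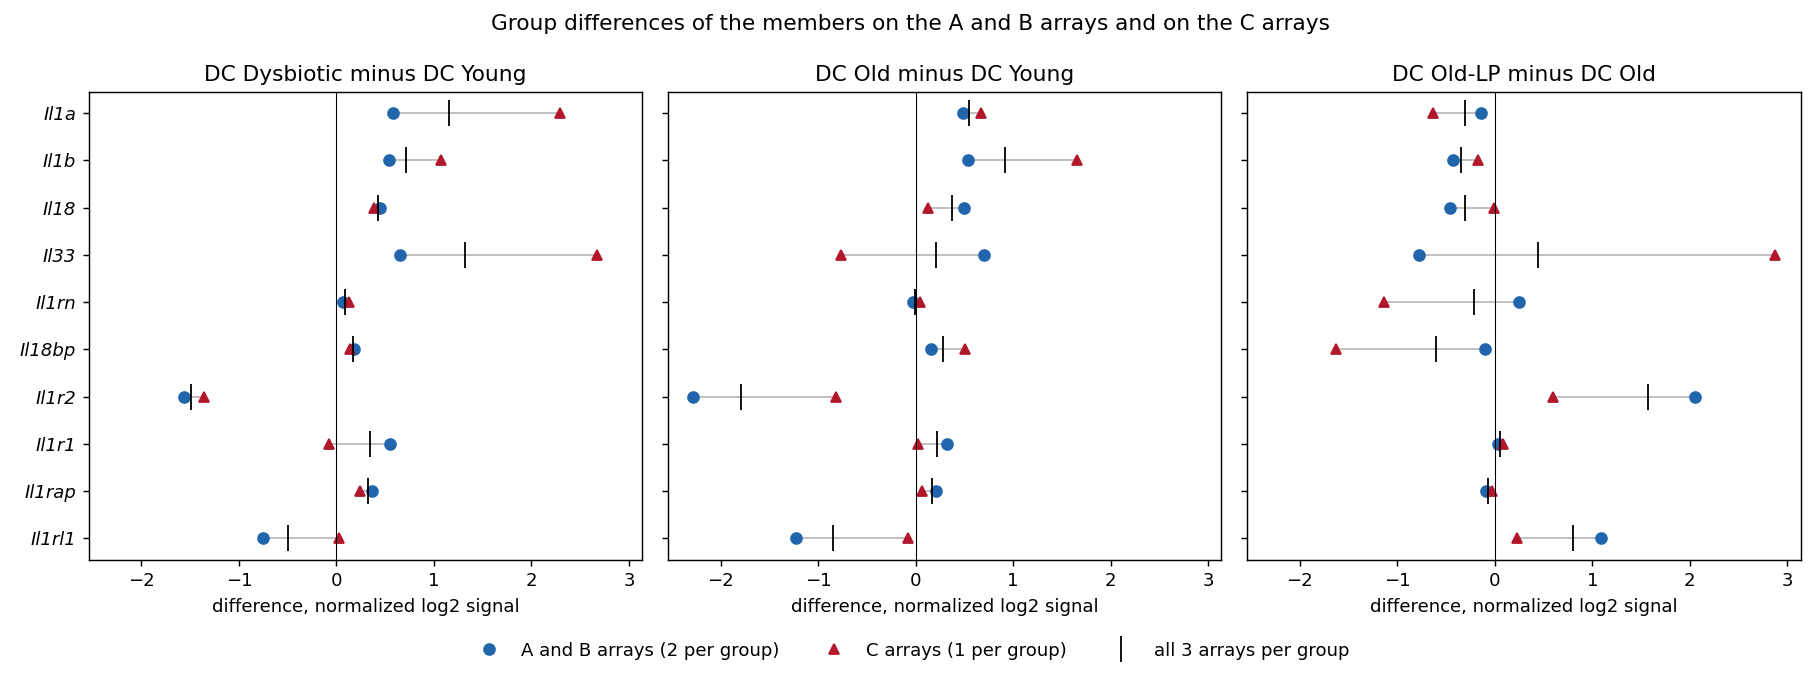
Difference in normalized log2 signal (x axis) of each gene's main probe (y axis) in 3 comparisons, on the A and B arrays (circles, 2 per group), on the C arrays (triangles, 1 per group) and over all 3 arrays per group (ticks). Il1r2 lies left of 0 in the first 2 panels and right of 0 in the last on both sets of arrays, whereas Il33 changes side in the last 2 panels. In the middle panel the C arrays compared lie on different slides.

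The other genes of the pathway were read from 4 lists, and none of them was called over the 12 arrays in any of the 6 comparisons, with or without the replicate block. Of the other ligands and receptors of the family, 7 genes had a probe and 0 were called. They included Il1rl2, the IL-36 receptor and a neighbour of Il1r1, whose differences had the signs of Il1r2, with -0.38 for DC Dysbiotic and -0.44 for DC Old relative to DC Young and 0.33 for DC Old-LP relative to DC Old, each without a call. Sigirr, an inhibitory receptor of the family, had -0.17, -0.14 and 0.09. On the A and B arrays Il18rap, the accessory chain of the IL-18 receptor, was below its DC Young level in DC Old (-0.62, adjusted p = 0.0186) and higher in DC Old-LP than in DC Old (0.57, adjusted p = 0.0264). It was the 1 gene of this list called there, beside 9.17% and 8.24% of all probes. Of 22 inflammasome and processing genes, 0 were called, with a median difference of 0.03 in DC Old against DC Young, beside 0.00 over all genes. The largest values were those of Mefv, for the inflammasome sensor pyrin, with 0.67 for DC Dysbiotic and 0.79 for DC Old relative to DC Young (adjusted p = 0.846 and 0.341) and -0.63 between the old groups (adjusted p = 0.685), and none of these pairs of groups overlapped. Over the A and B arrays Mefv was called in all of them, at 0.72, 0.86 and -0.84. Casp4, the caspase that senses LPS inside the cell, followed with 0.56 in DC Dysbiotic relative to DC Young and -0.54 between the old groups, where the slide block gave an adjusted p of 0.0445. On the A and B arrays 1 gene of the list was called higher and 2 lower with age, and 1 was higher and 5 lower in DC Old-LP than in DC Old, against 9.17% and 8.24% of all probes. For this and the other lists these shares include dim and unnamed probes, while list genes were read at main probes. The share among main probes is not given. Nlrp3, the best known inflammasome sensor, stood at 0.75 in DC Old against DC Young, and at -0.01 over the A and B arrays. Of 21 genes of receptor signalling, 0 were called, with medians of -0.15 for age and 0.07 between the old groups, beside 0.00 and 0.01 over all genes. Cd14, the LPS co-receptor, had 0.58 in DC Dysbiotic and 0.69 in DC Old relative to DC Young. Myd88, the adaptor of these receptors, had -0.54 in DC Dysbiotic. Traf6, a ubiquitin ligase downstream of the receptors, had -0.53 for age and 0.62 between the old groups, beside -0.69 between the old groups for Ly96, the partner of the LPS receptor, which had -0.14 over A and B (adjusted p = 0.811) and -1.79 on the C arrays. On the A and B arrays 1 gene was higher (Cd14, 0.73) and 1 lower (Traf6, -0.91) in DC Old than in DC Young, and 1 was higher (Traf6, 1.01) and 1 lower (Peli3, -0.65) in DC Old-LP than in DC Old. Of all probes, 9.17% and 8.24% were called in these comparisons. On the C arrays Traf6 had the opposite signs, with 0.25 for DC Old against DC Young and -0.15 between the old groups. Of 14 genes listed as feedback on IL-1 and LPS signalling, 0 were called. Over all arrays their median was 0.42 for age, beside 0.00 over all genes, and 0.01 between the old groups, beside 0.01. Dusp1, a phosphatase of the MAP kinases, had 1.08 in DC Old relative to DC Young, with 0.06 over the A and B arrays and 3.11 between the C arrays, which lie on different slides. Zfp36, which destabilizes cytokine transcripts, had 0.83 and, over A and B, 0.62 (adjusted p = 0.0259), and -0.65 between the old groups, where Nfkbie, an inhibitor of NF-κB, had -0.58. These differences were -1.64 for Zfp36 and -1.57 for Nfkbie on the C arrays, and -0.16 and -0.08 over A and B. On the A and B arrays 2 genes of the list were called higher with LP than in DC Old, Dusp1 (0.60, adjusted p = 0.0191) and Nfkbiz (0.53, adjusted p = 0.0372), and 0 lower. The share of all probes called there was 8.24%. In DC Dysbiotic relative to DC Young, Zfp36 had 0.46 and Socs3, a suppressor of cytokine signalling, 0.39.

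The genes whose pattern over the 12 arrays was most like that of a member were found among 10668 genes by Pearson's correlation of main probes, as a description, since the arrays share slides and groups. For Il1r2 they were Chn2 (r = 0.976, and 0.997 over the 8 A and B arrays) and Odc1, the rate-limiting enzyme of polyamine synthesis (0.975 and 0.995). For Il1rl1 they were Shcbp1 (0.989 and 0.988) and Nuf2, a kinetochore protein (0.985 and 0.978). Il18 was most like Epb41l3 (0.979) and Ly6g6f (0.979), and Il1b most like Bag3, a co-chaperone (0.959), and LOC664787 (0.956). Il1rap was most like Mettl21c and Oit3 (0.967 and 0.961) and Il1r1 most like Ppwd1 and Setd5 (0.934 and 0.869). Il18bp was most like U2af1l4, with an r of 0.992 over 12 arrays and 0.839 over the A and B arrays, and Flt3 (0.986 and 0.305). Il1rn was most like Foxk2 (0.940 and 0.495) and Rpl36al (0.939 and 0.370).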

How the data were processed

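RNA of 12 samples, 3 per group, was hybridised to 1 Agilent mouse array each, in a single colour. The intensity values deposited by the authors were background-subtracted spot signals from Agilent Feature Extraction, not normalized between arrays. The authors also deposited log2 values, a quantile-normalized table of 46302 probes, which served as an alternative.

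From the intensities, control spots were removed, 1068 outlier readings were set missing, log2 was taken, arrays were quantile-normalized and spots of a probe were averaged, leaving 56605 probes, of which 35405 were named through their accession. One model of the 4 group means was fitted to all 12 arrays with limma 3.58.1 in R 4.3.3 (lmFit and eBayes), and p-values were adjusted by Benjamini-Hochberg over all probes in each of 6 comparisons. The fit was tested on simulated data with independent noise on each array. These held no effect of slide or replicate letter, so the test does not cover such effects. Every member was named. Of 4 pathway lists, every called gene was named or, without a call, the 2 largest differences among genes well above background on all 12 arrays, and genes named beyond that were chosen after their values were seen. For likeness, the 2 highest correlations were taken. The members and lists were chosen with earlier results of these data known.

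Arrays with the same replicate letter deviated together (r of 0.415 to 0.711 over pairs of groups), which met the rule for pairing, but A and B also deviated together (0.449 to 0.570), both against C (-0.659 to -0.466), so the letter mainly sets C apart. With 3 arrays against 3, an exact permutation test of a single value cannot give a p under 0.1. The number of arrays limits the precision. Alternatives were another scaling (75th percentile), normexp correction with an offset of 50 on median signals, the deposited table, a filter on dim probes (25581 kept), gene means, replicate or slide blocks, A and B or C arrays alone, 2 groups alone, a variance trend, outliers kept and each array left out. The count over all 19 member probes was added after seeing the data.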

Additional observations from a re-analysis of the deposited data

How the results depend on the processing

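At the main probes 0 of 10 genes were called in the 6 comparisons. For DC Dysbiotic and DC Old, each against DC Young, and then for the 2 old groups, a slide block gave 1, 1 and 1 called genes and the A and B arrays 4, 5 and 3. A replicate block gave 1 for DC Old against DC Young, and A and B gave 3 in DC Old-LP against DC Dysbiotic. Counted over 19 probes, against 0, 1 and 1 called, the replicate block gave 1, 2 and 1, the slide block 2, 2 and 2, and A and B 8, 9 and 5. Of all probes, the replicate block called 0.984%, 2.18% and 1.65%, and A and B 6.14%, 9.17% and 8.24%. The share for the slide block is not given, so its counts cannot be set against one. In DC Old-LP against DC Dysbiotic, A and B gave 5 (all probes 4.81%), against 0. In both comparisons with a call, normexp, the deposited table and a fit of 2 groups alone gave 0, leaving out 1 array gave 0 to 1, and the 75th-percentile scaling gave 0 between the old groups. Of the 44 alternative values of both called Il1r2 differences, 21 lost the call and 0 changed sign. Of 1462 values of uncalled differences, 23 became called and 88 changed sign. A sign was reversed with a call for Il33 between the old groups, with -0.77 on A and B. The cause was not tested. In the pathway lists a slide block added 1 call, Casp4 in the last of these comparisons. Il1a and Il33 were near background on the C arrays, so their values over all arrays carry little weight.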
